A study of Homo sapiens with 16 samples.

Results

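The 31 semaphorin, plexin and neuropilin genes were followed by RNA sequencing through withdrawal of MAPK pathway drugs from resistant human melanoma cells. They were the protein-coding rows of the count table whose symbols are SEMA3A to SEMA7A and relatives, PLXNA1 to PLXND1, or NRP1 and NRP2. They comprise 20 semaphorins (7 of class 3, 6 of class 4, 2 of class 5, 4 of class 6 and 1 of class 7), 9 plexins and 2 neuropilins, out of 30813 genes in the table and 16739 protein-coding ones. The cells were DR A375, derived from the melanoma line A375, and 451Lu BR, derived from the melanoma line 451Lu, called A375 and 451Lu below. A375 was sampled after 6, 24 and 48 h in DMSO without drug, and against it stood A375 kept on dabrafenib (0.5 µM) with trametinib (0.05 µM). 451Lu was sampled after 24, 72 and 120 h in DMSO, and against it stood 451Lu kept on dabrafenib (1 µM). Each of the 8 groups had 2 libraries. Dabrafenib inhibits BRAF and trametinib inhibits MEK. For 451Lu the labels name dabrafenib as the only agent applied, yet elsewhere call the cells resistant to both drugs.

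Semaphorins are secreted or membrane-bound guidance proteins, first known for steering axons, and plexins are their main receptors on the cell surface. Secreted class 3 semaphorins mostly reach A plexins through neuropilins, co-receptors that also bind VEGF, while class 4 to 7 semaphorins sit in or on the membrane and mostly bind plexins directly. Plexins act on small GTPases and so on adhesion and cell shape, and in the melanocyte lineage the family is known from the guidance of neural crest cells.

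Libraries held 9714190 to 16691725 counts, and the family took 0.154% to 0.317% of them. Levels are CPM, counts scaled to 1000000 counts per library in the genes tested, with TMM factors over all 16 libraries. Changes are log2 fold changes ± SE from edgeR's quasi-likelihood test with 1 fit per line. A change was called at a Benjamini-Hochberg adjusted p under 0.05 over all genes tested. Of the family, 30 genes passed the filter on low counts in A375 (all but SEMA5B) and 27 in 451Lu (all but SEMA4A, SEMA4D, SEMA5B and SEMA6D). In bulk RNA a shift in the share of cells that express a gene and a shift in RNA per cell cannot be told apart. Whether the libraries of a group are separate cultures is not stated, and the p-values therefore cover the spread among these libraries alone. Only 1 on-drug group was taken per line, so effects of time spent in culture and of withdrawal cannot be told apart. Off drug, 8 or 9 of 10 ERK output genes were higher and 1 was lower at each time in both lines. Of 7 melanocyte markers, 6 or 7 were lower and none higher, and the falls differed in size. SOX10, a lineage transcription factor, stood at 512 and 576 CPM in A375 at 48 h, against 601 and 615 on drug. In 451Lu at 120 h SOX10 stood at 237 and 259 CPM, against 534 and 558 on drug. MITF stood there at 285 and 309 CPM, against 622 and 613 on drug. DCT, MLANA and TYRP1 were nearly lost in 451Lu at 120 h, while PMEL and TYR kept more of their level. DCT stood at 0.17 and 0.29 CPM, against 130 and 144 on drug. MLANA stood at 3.6 and 5.1 CPM, against 627 and 618 on drug. TYRP1 stood at 0 and 0 CPM, against 1.57 and 1.74 on drug. PMEL stood at 397 and 449 CPM, against 8977 and 9541 on drug. TYR stood at 31.7 and 43.9 CPM, against 281.0 and 281.4 on drug.

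In 451Lu most family genes that were called off drug were higher than on drug, and in A375 the balance turned between 6 and 24 h. At 120 h in 451Lu 20 of 27 genes tested were higher, against 37.3% of all genes tested, and 4 were lower, against 36.6%. NRP1, PLXNA3, PLXNB2, SEMA3A and SEMA4C were among the higher, and SEMA6A, PLXND1, PLXNA2 and SEMA7A were lower. The 20 include NRP1, SEMA3F and SEMA6B, with 1, 2 and 2 counts on drug. These passed the filter on low counts only through times off drug, so a fall could not have been called for them. In A375 at 6 h 10 of 30 family genes were higher, against 35.1% of all genes tested, and 15 lower, against 38.1%. At 24 h 17 were higher, against 36.2%, and 7 lower, against 36.3%. SEMA6A fell and NRP1 rose at every time in both lines. In 451Lu the summed level of the 31 genes was 1683 to 1789 CPM on drug, 1822 to 1949 CPM at 24 h, 2982 to 3008 CPM at 72 h and 3697 to 3713 CPM at 120 h. In A375 it was 1405 to 1411 CPM on drug, 1583 to 1641 CPM at 6 h, 1954 to 2006 CPM at 24 h and 1702 to 1741 CPM at 48 h. Much of the A375 sum was NRP2, at 531 and 524 CPM on drug, 847 and 813 at 6 h, and 1014 and 1006 at 24 h. The rise at 6 h did not extend to the semaphorins. Their sum in A375 was 412.5 to 422.2 CPM on drug and 265.2 to 269.5 CPM at 6 h. The plexin sum there was 458.5 to 461.8 CPM on drug and 467.5 to 482.9 CPM at 6 h.

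**Figure D1:**
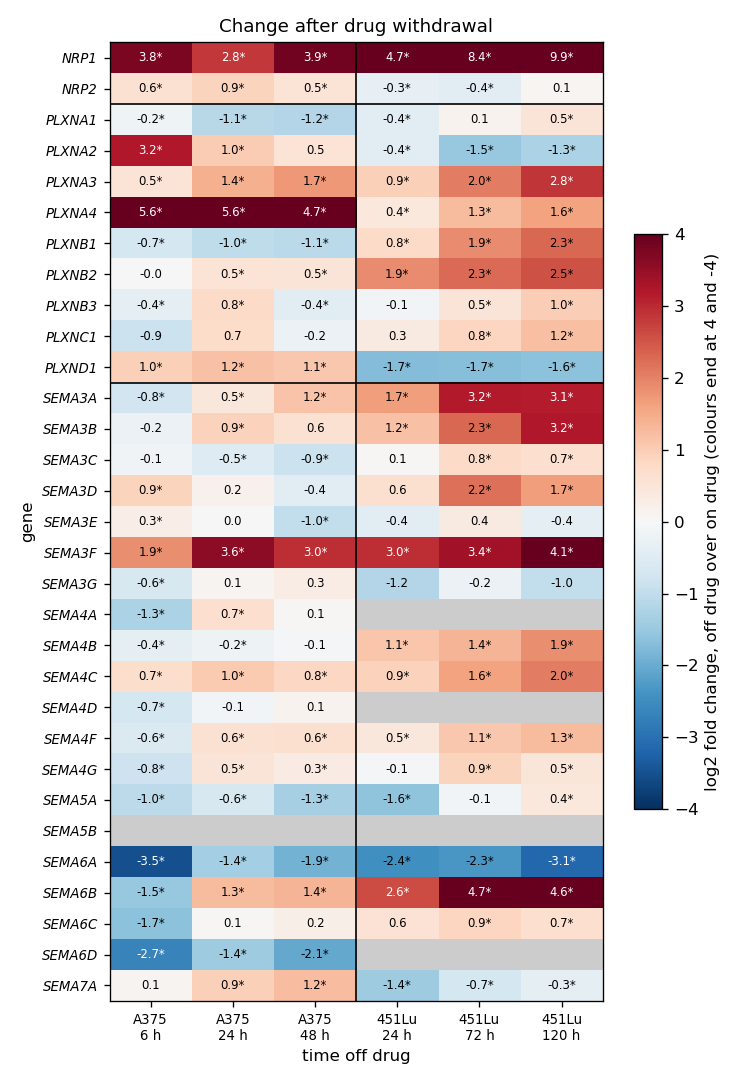
Log2 fold change of each of the 31 genes (rows) at each time off drug against on drug (columns: A375 at 6, 24 and 48 h, 451Lu at 24, 72 and 120 h), from edgeR. Stars mark adjusted p under 0.05, grey cells were not tested, and colours end at 4 and -4; NRP1 and SEMA3F are red and SEMA6A is blue in every column, while PLXND1 is red in A375 and blue in 451Lu.

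Most of all genes tested were called too at each time off drug in both lines, so the family's counts are given beside that background. In A375 at 48 h 13 of 30 were higher, against 36.6%, and 8 lower, against 36%. In 451Lu at 24 h 12 of 27 were higher, against 29.2% of all genes tested, and 7 lower, against 24.9%. At 72 h 18 were higher, against 34.2%, and 5 lower, against 33.4%. The family's share of higher calls was above the background in 451Lu at 24, 72 and 120 h (44.4%, 66.7% and 74.1%). In A375 it was near the background at 6 h (33.3%), above it at 24 h (56.7%) and only slightly above it at 48 h (43.3%, against 36.6%). The shares include NRP1, SEMA3F and SEMA6B in 451Lu and PLXNA4 and SEMA3F in A375, which passed the filter only through times off drug. Changes of at least 2-fold in either direction were called for 24%, 22.8% and 24% of all genes in A375 at 6, 24 and 48 h, and for 10, 12 and 13 of the family's 30. In 451Lu at 24, 72 and 120 h they were called for 15.6%, 26.3% and 32.9% of all genes and for 11, 16 and 17 of the family's 27. The median log2 fold change over the family's tested genes was -0.30, 0.58 and 0.30 in A375 at 6, 24 and 48 h, beside -0.06, -0.02 and 0.00 over all genes tested. In 451Lu at 24, 72 and 120 h it was 0.42, 0.88 and 1.20, beside 0.03, 0.00 and 0.00. Tested against a 1.5-fold change in place of no change, 11 of the family were higher and 4 lower in A375 at 24 h, and 7 were higher and 4 lower in 451Lu at 24 h.

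Before withdrawal PLXNB2, PLXNA1 and SEMA6A were among the 4 highest genes of the family in both lines. Per kilobase of annotated exons, which makes genes comparable, NRP2 (38.0 CPM per kb), PLXNB2 (30.6), PLXNA1 (15.9) and SEMA6A (12.4) had the highest mean levels in A375 on drug. In 451Lu on drug SEMA6A (32.8 CPM per kb), PLXNA1 (28.1), PLXNB2 (26.8) and SEMA7A (21.6) led. SEMA5B had 0 counts in every library on drug in both lines and at most 1 count in any group. By the last time NRP2 (56.3 CPM per kb) and PLXNB2 (44.3) still led in A375, followed by SEMA7A (21.2). In 451Lu at 120 h PLXNB2 (157 CPM per kb) led, followed by SEMA4C (53.1), SEMA3A (52.4), PLXNA1 (40.9) and PLXNA3 (21.0).

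The lines differed on drug in 28 of 30 genes, 15 higher and 13 lower in A375 than in 451Lu, against 37.9% and 39.3% of all genes tested. A375 carried more neuropilin. NRP2 was 4.32-fold higher (2.11 ± 0.054, adjusted p = 5.55e-22). NRP1 had 94 counts in A375 against 1 in 451Lu, a ratio of 88.9 (95% exact counting interval 15.6 to 3550). The fitted log2 difference was 6.09, with 5.36 after dropping 451Lu on-drug replicate 1 and 8.14 after dropping its replicate 2. It carried less of most plexins. PLXND1 (-3.37 ± 0.083), PLXNA2 (-3.98 ± 0.17), PLXNA3 (-2.02 ± 0.094) and PLXNC1 (-2.41 ± 0.24) were lower on the log2 scale, and PLXNB1 (1.74 ± 0.13) was higher. PLXNA4 had 2 counts in A375 on drug against 2629 in 451Lu on drug, so 451Lu was higher by a ratio of 1389 (384 to 11477). Among semaphorins, SEMA3E (3.08 ± 0.13) and SEMA3G (3.00 ± 0.24) were higher in A375, while SEMA6A (-1.40 ± 0.076), SEMA7A (-1.30 ± 0.081) and SEMA4C (-1.18 ± 0.064) were lower. The calls for PLXNB2, SEMA3D and SEMA4F were lost without 1 on-drug library (adjusted p = 0.122, 0.0618 and 0.197). Each line was on its own treatment, so line and drug cannot be told apart here, and counting intervals cover counting error only.

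**Figure D2:**
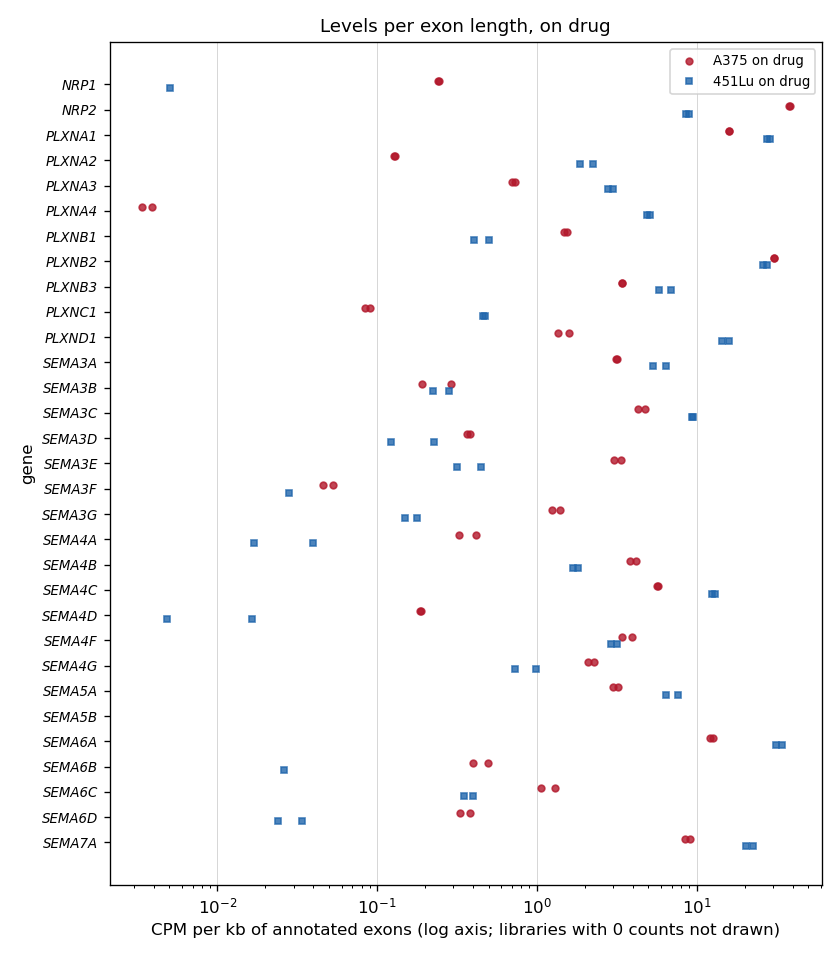
Level of each gene in each library on drug, in CPM per kilobase of annotated exons on a log axis (circles: A375; squares: 451Lu; libraries with 0 counts are not drawn). The symbols of a line lie close together for most genes, and NRP1, PLXNA2, PLXNA4 and PLXND1 are among the genes for which the lines lie far apart.

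Unless another time is named, each call in the accounts of single genes compares a time off drug with on drug. Both neuropilins were higher off drug in A375, whereas in 451Lu NRP1 alone rose. NRP1, the co-receptor through which SEMA3A acts, measured 2.76 and 2.82 CPM on drug, 41.7 and 37.1 at 6 h, 19.98 and 21.1 at 24 h, and 43.0 and 40.7 at 48 h in A375. All 6 libraries off drug stood far above both on drug, with folds of 13.7, 7.15 and 14.6 (3.78 ± 0.12, 2.84 ± 0.14 and 3.87 ± 0.12 at 6, 24 and 48 h, adjusted p at most 2.10e-19). In 451Lu NRP1 measured 0 and 0.0581 CPM on drug, 1.37 and 0.601 at 24 h, 16.9 and 11.8 at 72 h, and 50.3 and 27.9 at 120 h. Its on-drug libraries there held 1 count between them. The ratio of off drug to on drug was 32.4 (95% exact counting interval 5.33 to 1330) at 24 h, 452 (80.5 to 17926) at 72 h and 1270 (227 to 50202) at 120 h. The test called all of these times, and the fitted log2 fold change moved with the on-drug libraries. Dropping on-drug replicate 1 gave 3.93, 7.70 and 9.14, and dropping on-drug replicate 2 gave 6.60, 10.36 and 11.81. The 24 h call was lost in the first of these cases (adjusted p = 0.0655) and without 24 h replicate 1 (3.90, adjusted p = 0.104).

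NRP2, the co-receptor preferred by SEMA3F, measured 531 and 524 CPM on drug, 847 and 813 at 6 h, 1014 and 1006 at 24 h, and 781 and 785 at 48 h in A375. It rose at every time there (0.61 ± 0.041, 0.90 ± 0.041 and 0.54 ± 0.041 at 6, 24 and 48 h, adjusted p at most 1.05e-13), and no library off drug overlapped those on drug. In 451Lu NRP2 measured 120.2 and 124 CPM on drug, 93.2 and 99.1 at 24 h, 85.8 and 93.9 at 72 h, and 136 and 124 at 120 h. There it fell at 24 and 72 h (-0.32 ± 0.066 and -0.44 ± 0.068 at 24 and 72 h, adjusted p at most 6.36e-04) and did not pass the test at 120 h (0.07 ± 0.065, adjusted p = 0.320).

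The A plexins, which signal for neuropilin-bound semaphorins and for class 6 semaphorins, did not move together. PLXNA3 rose at every time in both lines. In A375 it measured 8.18 and 8.59 CPM on drug, 12.4 and 12.7 at 6 h, 23.7 and 22.1 at 24 h, and 27.9 and 28.6 at 48 h. The changes there were 0.54 ± 0.12, 1.42 ± 0.10 and 1.72 ± 0.10 at 6, 24 and 48 h, adjusted p at most 1.63e-04. In 451Lu PLXNA3 measured 32.8 and 35.0 CPM on drug, 65.5 and 62.5 at 24 h, 145 and 133 at 72 h, and 258 and 234 at 120 h, each time above the one before. It was 1.93-, 4.10- and 7.19-fold higher (0.95 ± 0.078, 2.04 ± 0.075 and 2.85 ± 0.074 at 24, 72 and 120 h, adjusted p at most 3.17e-08). PLXNA4 was barely counted in A375 on drug and abundant in 451Lu on drug. In A375 it measured 0.0553 and 0.0641 CPM on drug, 3.33 and 3.31 at 6 h, 3.32 and 3.68 at 24 h, and 2.03 and 1.64 at 48 h. Over 2 on-drug counts this is a ratio of 55.9 (95% exact counting interval 14.96 to 470) at 6 h, 58.6 (15.8 to 490) at 24 h and 30.9 (8.03 to 263) at 48 h. Its highest A375 library, at 3.68 CPM, lay below every 451Lu library. In 451Lu PLXNA4 measured 80.6 and 84.0 CPM on drug, 105 and 111 at 24 h, 193 and 203 at 72 h, and 226 and 287 at 120 h and was 3.08-fold higher at 120 h (1.62 ± 0.09, adjusted p = 7.03e-11).

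PLXNA1, the A plexin with the highest level per kilobase in both lines on drug, measured 175 and 174 CPM on drug, 162 and 156 at 6 h, 85.6 and 79.7 at 24 h, and 78.7 and 81.2 at 48 h in A375. It was 2.16- and 2.23-fold lower at 24 and 48 h (-1.11 ± 0.051 and -1.16 ± 0.053 at 24 and 48 h, adjusted p at most 7.71e-20). The smaller fall at 6 h (-0.17 ± 0.049, adjusted p = 0.00218) was lost without 6 h replicate 2 (-0.14, adjusted p = 0.0648). It was also lost in the joint fit of both lines (adjusted p = 0.0709) and by DESeq2 (adjusted p = 0.0659). In 451Lu PLXNA1 measured 301 and 314 CPM on drug, 244 and 204 at 24 h, 353 and 327 at 72 h, and 451 and 445 at 120 h. It stood below the on-drug libraries at 24 h (-0.43 ± 0.073, adjusted p = 1.22e-04) and above them at 120 h (0.53 ± 0.072, adjusted p = 5.64e-06).

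PLXNA2, which in mice binds SEMA6A, measured 1.77 and 1.79 CPM on drug, 17.8 and 15.9 at 6 h, 4.28 and 2.95 at 24 h, and 3.26 and 2.07 at 48 h in A375. It peaked at 6 h, 9.20-fold above on drug (3.20 ± 0.18, adjusted p = 1.92e-17). The rise at 24 h (1.02 ± 0.24, adjusted p = 3.86e-04) was lost without 24 h replicate 1 (0.70, adjusted p = 0.0566). At 48 h it did not pass the test (0.54 ± 0.28, adjusted p = 0.0807) unless 48 h replicate 2 was left out (0.84, adjusted p = 0.0151). In 451Lu PLXNA2 measured 25.5 and 30.9 CPM on drug, 19.8 and 21.6 at 24 h, 10.45 and 9.49 at 72 h, and 12.9 and 10.7 at 120 h. The libraries at 72 and 120 h lay below every earlier one (-1.505 ± 0.13 and -1.27 ± 0.13 at 72 and 120 h, adjusted p at most 1.18e-07). The 24 h fall (-0.43 ± 0.11, adjusted p = 0.00429) was lost without on-drug replicate 2 (-0.28, adjusted p = 0.107).

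Of the B plexins, PLXNB1 and PLXNB2 rose at every time in 451Lu, and PLXNB3 at 72 and 120 h (0.52 ± 0.087 and 0.98 ± 0.083 at 72 and 120 h, adjusted p at most 6.23e-05). PLXNB2, a receptor of SEMA4C, measured 188 and 201 CPM on drug, 747 and 671 at 24 h, 953 and 911 at 72 h, and 1198 and 1084 at 120 h in 451Lu. Every library off drug was above both on drug, and the gene was 3.72-, 4.80- and 5.80-fold higher (1.89 ± 0.069, 2.26 ± 0.07 and 2.54 ± 0.071 at 24, 72 and 120 h, adjusted p at most 1.10e-12). In A375 PLXNB2 measured 221 and 222 CPM on drug, 230.5 and 222 at 6 h, 344 and 319.7 at 24 h, and 309.5 and 333 at 48 h. It rose at 24 and 48 h (0.55 ± 0.047 and 0.50 ± 0.047 at 24 and 48 h, adjusted p at most 1.60e-11), and at 6 h it did not pass the test (-0.01 ± 0.048, adjusted p = 0.893). PLXNB1, the receptor of SEMA4D, went opposite ways in the lines. In 451Lu it measured 4.90 and 3.95 CPM on drug, 6.97 and 7.81 at 24 h, 15.6 and 17.0 at 72 h, and 22.3 and 21.1 at 120 h. It was 1.71-, 3.72- and 4.87-fold higher there (0.77 ± 0.16, 1.89 ± 0.15 and 2.29 ± 0.14 at 24, 72 and 120 h, adjusted p at most 7.19e-04). In A375 PLXNB1 measured 14.5 and 14.998 CPM on drug, 9.55 and 8.86 at 6 h, 7.54 and 7.45 at 24 h, and 6.96 and 7.33 at 48 h. It was 1.64-, 2.01- and 2.11-fold lower there (-0.71 ± 0.12, -1.01 ± 0.12 and -1.07 ± 0.13 at 6, 24 and 48 h, adjusted p at most 2.31e-06). PLXNB3, a receptor of SEMA5A, moved less, between -0.44 and 0.98 over the 6 comparisons. In A375 it rose at 24 h (0.77 ± 0.08, adjusted p = 2.06e-10) and fell at 48 h (-0.44 ± 0.10, adjusted p = 1.86e-04). Its 6 h fall there (-0.36 ± 0.10, adjusted p = 0.00122) was lost without 6 h replicate 1 (-0.26, adjusted p = 0.0590). Of its exon bases 20.4% lie in exons of SRPK3 on the same strand, which had 26 counts in all libraries against 8532 for PLXNB3.

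PLXND1, the receptor through which SEMA3E acts without a neuropilin, also went opposite ways, the other way round. In 451Lu it measured 140.1 and 157 CPM on drug, 43.5 and 43.9 at 24 h, 42.2 and 49.3 at 72 h, and 47.9 and 49.2 at 120 h. All 6 libraries off drug lay between 42.2 and 49.3 CPM, below both on drug, and the gene was 3.33-, 3.23- and 3.09-fold lower (-1.74 ± 0.077, -1.69 ± 0.08 and -1.63 ± 0.078 at 24, 72 and 120 h, adjusted p at most 1.39e-11). In A375 PLXND1 measured 13.3 and 15.6 CPM on drug, 29.2 and 27.8 at 6 h, 33.6 and 32.7 at 24 h, and 29.2 and 32.3 at 48 h. It was 1.94-, 2.26- and 2.095-fold higher there (0.95 ± 0.10, 1.18 ± 0.089 and 1.07 ± 0.094 at 6, 24 and 48 h, adjusted p at most 6.16e-11). PLXNC1, the receptor of SEMA7A, stayed between 0.426 and 1.64 CPM in A375. Against on drug it was not called there, except at 24 h in the joint fit (0.76, adjusted p = 0.0415). It rose at 24 h against 6 h (1.59 ± 0.44, adjusted p = 0.00177). In 451Lu it stayed between 4.53 and 11.3 CPM and rose at 72 and 120 h (0.85 ± 0.17 and 1.20 ± 0.15 at 72 and 120 h, adjusted p at most 2.69e-04). A stretch of 1.79% of its exon bases overlaps CEP83 on the opposite strand, which had 3722 counts in all libraries against 786 for PLXNC1. Counts of that pair may be shared if strand was not used.

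**Figure D3:**
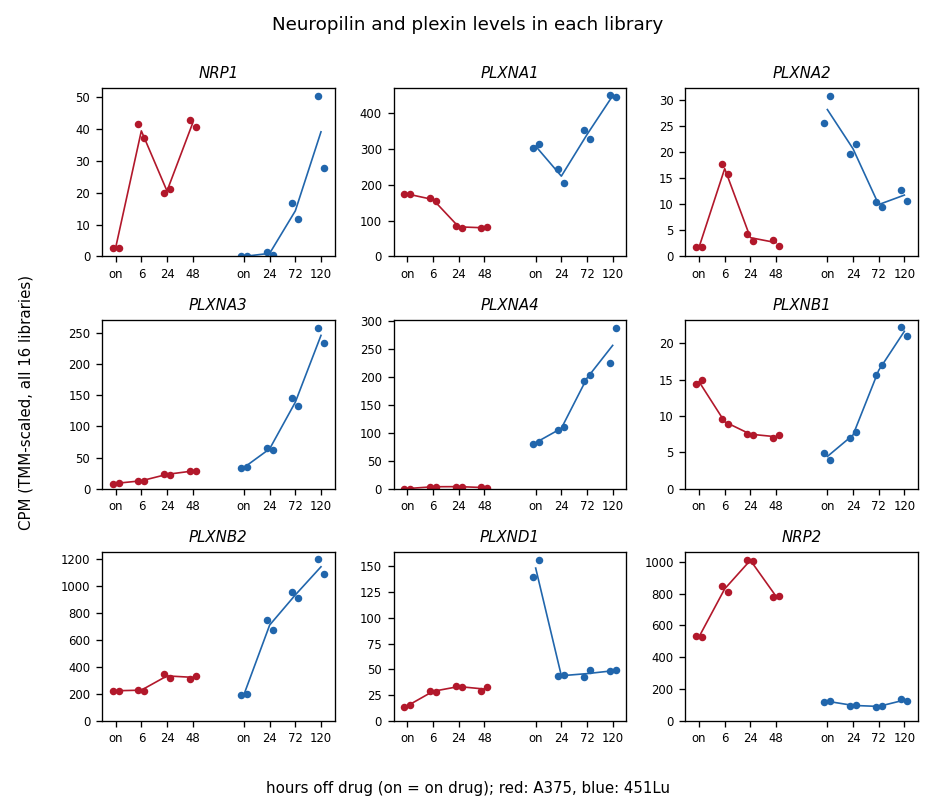
CPM of 7 plexins and both neuropilins in each library (points) with group means (lines), on drug and at hours off drug along the x axis, with A375 in red on the left and 451Lu in blue on the right of each panel. PLXNA3 and PLXNB2 climb in 451Lu, PLXNA2 peaks at 6 h in A375, and PLXNB1 and PLXND1 run in opposite directions in the lines.

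The 250 bases just before each RefSeq start (GRCh38.p14) were read for 27 of the 31 genes, 48 windows in all. NRP1, SEMA3A, SEMA6A and SEMA6B had no window, so the shares below leave them out. They were searched on both strands for TGANTCA (AP-1, the factors of the FOS and JUN families), CCGGAA (ETS, a family that includes ERK targets) and CATGTG or CACGTG (E-boxes of the kind MITF binds). AP-1 letters were in 1 of 48 windows, against 6.57% of all 35116 RefSeq windows of this length. ETS letters were in 5 of 48 against 14.5%, and E-box letters in 8 of 48 against 15.2%. Several genes have more than 1 window, and windows of 1 gene can overlap. In SEMA4A overlapping windows share the same E-box letters, which were thus counted more than once. The windows of 4 plexins are printed because PLXNB1 and PLXND1 moved in opposite ways in the lines and PLXNB2 and PLXNA3 rose in both. Capitals mark ETS letters in PLXNB1 and E-box letters in PLXNB2. PLXNB1 (chr3:48430087-48430336, minus strand, the first of its starts) holds 1 ETS match. Another PLXNB1 window (chr3:48429345-48429594), not printed, also holds 1 ETS match. PLXNB2 (chr22:50301670-50301919, minus strand) holds 3 E-box matches, of which 2 overlap as CATGTG and its reverse complement. PLXND1 (chr3:129606677-129606926, minus strand) and PLXNA3 (chrX:154458031-154458280, plus strand) hold none of the 3 motifs. A match is a match of letters, not a site. Over the 48 windows the median GC content was 64.8%, against 58% over all windows.
PLXNB1: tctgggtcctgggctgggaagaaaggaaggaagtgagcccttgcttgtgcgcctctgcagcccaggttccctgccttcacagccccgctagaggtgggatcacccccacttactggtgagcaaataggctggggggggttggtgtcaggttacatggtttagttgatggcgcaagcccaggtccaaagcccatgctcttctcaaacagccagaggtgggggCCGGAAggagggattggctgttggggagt
PLXND1: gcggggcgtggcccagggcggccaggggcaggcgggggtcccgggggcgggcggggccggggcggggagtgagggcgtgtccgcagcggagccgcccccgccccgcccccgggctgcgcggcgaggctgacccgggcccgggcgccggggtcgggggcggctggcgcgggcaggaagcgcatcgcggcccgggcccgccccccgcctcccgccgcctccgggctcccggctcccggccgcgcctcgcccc
PLXNB2: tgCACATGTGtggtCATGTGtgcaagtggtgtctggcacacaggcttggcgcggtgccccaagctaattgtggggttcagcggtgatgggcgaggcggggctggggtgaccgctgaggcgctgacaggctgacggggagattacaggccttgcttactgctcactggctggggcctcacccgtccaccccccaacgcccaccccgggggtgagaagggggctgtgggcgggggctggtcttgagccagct
PLXNA3: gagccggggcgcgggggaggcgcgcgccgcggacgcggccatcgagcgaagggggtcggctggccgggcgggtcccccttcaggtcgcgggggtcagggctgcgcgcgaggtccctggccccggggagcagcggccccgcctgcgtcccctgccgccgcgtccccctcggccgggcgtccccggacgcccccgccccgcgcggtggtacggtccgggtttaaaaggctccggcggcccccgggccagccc

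Of the 7 secreted class 3 semaphorins, 5 rose in 451Lu at 72 and 120 h and none fell. Of all genes tested, 34.2% and 37.3% rose and 33.4% and 36.6% fell at these times. SEMA3F, among the 5, had 2 counts on drug. The summed level of the 7 in 451Lu was 115 to 127 CPM on drug, 227 to 250.1 at 24 h, 604 to 616 at 72 h and 559.6 to 659 at 120 h. In A375 it was 93.8 to 98.3 CPM on drug, 87.3 to 92.0 at 6 h, 106 to 107 at 24 h and 111.6 to 112 at 48 h. Most of the 451Lu sum off drug was SEMA3A, the ligand that collapses growth cones through NRP1. In 451Lu SEMA3A measured 60.0 and 49.99 CPM on drug, 179 and 161 at 24 h, 487 and 496 at 72 h, and 443 and 539.8 at 120 h. It was 3.16-, 8.98- and 8.86-fold higher off drug (1.66 ± 0.10, 3.17 ± 0.10 and 3.15 ± 0.10 at 24, 72 and 120 h, adjusted p at most 5.15e-10). In A375 SEMA3A measured 29.7 and 29.4 CPM on drug, 18.8 and 16.7 at 6 h, 42.0 and 41.2 at 24 h, and 68.9 and 66.0 at 48 h. It was below the on-drug libraries at 6 h (-0.77 ± 0.087, adjusted p = 1.13e-09) and above them at 24 and 48 h (0.46 ± 0.071 and 1.16 ± 0.068 at 24 and 48 h, adjusted p at most 6.42e-07).

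SEMA3B, a secreted ligand described as a tumour suppressor, measured 1.29 and 1.63 CPM on drug, 2.87 and 3.77 at 24 h, 6.41 and 8.09 at 72 h, and 14.2 and 13.1 at 120 h in 451Lu. It was 2.27-, 4.93- and 9.16-fold higher off drug there (1.18 ± 0.26, 2.30 ± 0.23 and 3.19 ± 0.20 at 24, 72 and 120 h, adjusted p at most 0.00108). In A375 SEMA3B measured 1.11 and 1.67 CPM on drug, 1.11 and 1.25 at 6 h, 2.29 and 3.19 at 24 h, and 2.11 and 2.16 at 48 h. The 24 h rise there (0.93 ± 0.28, adjusted p = 0.00318) was lost without on-drug replicate 1 (0.65, adjusted p = 0.0867) or 24 h replicate 2 (0.71, adjusted p = 0.0634). The 48 h value (0.61 ± 0.31, adjusted p = 0.0755) passed without on-drug replicate 2 (0.92, adjusted p = 0.0366).

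SEMA3F, the ligand that acts through NRP2, was scarce throughout. In A375 it measured 0.221 and 0.256 CPM on drug, 1.19 and 0.627 at 6 h, 3.38 and 2.54 at 24 h, and 1.497 and 2.42 at 48 h. It was 11.97- and 7.81-fold higher at 24 and 48 h (3.58 ± 0.41 and 2.97 ± 0.48 at 24 and 48 h, adjusted p at most 1.30e-06). Its 6 h call (1.87 ± 0.58, adjusted p = 0.00439) was lost without 6 h replicate 1 (1.33, adjusted p = 0.139). In 451Lu SEMA3F measured 0.136 and 0 CPM on drug, 0.790 and 0.257 at 24 h, 0.450 and 0.999 at 72 h, and 1.03 and 1.45 at 120 h. Against 2 counts on drug the ratio was 8.73 (95% exact counting interval 2.01 to 79.2) at 24 h, 11.8 (2.71 to 107) at 72 h and 19.6 (4.92 to 170) at 120 h. The 24 h call was lost without on-drug replicate 2 (1.95, adjusted p = 0.158) or 24 h replicate 1 (1.90, adjusted p = 0.293). The 72 h call was lost without on-drug replicate 2 (2.35, adjusted p = 0.0661) or 72 h replicate 2 (2.64, adjusted p = 0.104). The 120 h call held, at 3.06 without on-drug replicate 2. Without on-drug replicate 1 the fitted values were 5.75, 6.16 and 6.87 at 24, 72 and 120 h.

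SEMA3D, a secreted ligand with roles in vessel and heart patterning in mice, measured 1.84 and 0.987 CPM on drug, 2.08 and 2.14 at 24 h, 7.42 and 5.39 at 72 h, and 3.60 and 5.51 at 120 h in 451Lu. It rose there at 72 and 120 h (2.20 ± 0.30 and 1.68 ± 0.32 at 72 and 120 h, adjusted p at most 1.54e-04). In A375 SEMA3D measured 2.93 and 3.08 CPM on drug, 5.20 and 6.35 at 6 h, 3.5004 and 3.36 at 24 h, and 2.55 and 1.98 at 48 h, higher than on drug at 6 h (0.90 ± 0.19, adjusted p = 1.08e-04) and not past the test later. The other class 3 genes moved by less than 2-fold wherever they were called. SEMA3C, which binds both neuropilins, fell in A375 at 24 and 48 h (-0.51 ± 0.086 and -0.85 ± 0.095 at 24 and 48 h, adjusted p at most 2.84e-06) and rose in 451Lu at 72 and 120 h (0.75 ± 0.066 and 0.68 ± 0.065 at 72 and 120 h, adjusted p at most 7.72e-08). SEMA3E, the ligand of PLXND1, fell in A375 at 48 h (-0.99 ± 0.10, adjusted p = 2.96e-11). Its small 6 h rise there (0.26 ± 0.08, adjusted p = 0.00371) was lost without on-drug replicate 2 (0.20, adjusted p = 0.0679). In 451Lu its levels were 2.08 to 4.50 CPM, and no time was called against on drug. Its rise there at 72 h against 24 h (0.79 ± 0.27, adjusted p = 0.0244) was lost without 24 h replicate 1 (0.63, adjusted p = 0.154) or 72 h replicate 1 (0.64, adjusted p = 0.149) and by DESeq2 (adjusted p = 0.108). SEMA3G, an NRP2 ligand, fell in A375 at 6 h (-0.63 ± 0.18, adjusted p = 0.00196) and was not called later, although 48 h passed as a rise without 48 h replicate 1 (0.46, adjusted p = 0.0172). In 451Lu it stayed under 1 CPM and was not called. Exceptions there were 24 h without 24 h replicate 1 (-2.16, adjusted p = 0.0478) and in the joint fit (-1.19, adjusted p = 0.0475).

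Of the class 4 semaphorins, transmembrane proteins that mostly bind B plexins, all 4 tested in 451Lu were higher at 72 and 120 h. Of all genes tested, 34.2% and 37.3% were higher at these times. In A375 the class was mixed. SEMA4C, a ligand of PLXNB2, measured 80.6 and 77.1 CPM on drug, 148 and 141 at 24 h, 242 and 239 at 72 h, and 329 and 326 at 120 h in 451Lu. It was 1.88-, 3.06- and 4.11-fold higher off drug (0.91 ± 0.058, 1.61 ± 0.058 and 2.04 ± 0.058 at 24, 72 and 120 h, adjusted p at most 1.32e-09). In A375 SEMA4C measured 35.1 and 34.6 CPM on drug, 61.2 and 56.2 at 6 h, 76.4 and 69.3 at 24 h, and 61.1 and 64.3 at 48 h and rose at every time (0.72 ± 0.069, 1.03 ± 0.065 and 0.81 ± 0.069 at 6, 24 and 48 h, adjusted p at most 3.40e-11). The ligand and its receptor PLXNB2 were thus both higher at 24 h and at the last time in each line.

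SEMA4B measured 11.8 and 12.7 CPM on drug, 25.8 and 26.6 at 24 h, 28.3 and 34.6 at 72 h, and 43.3 and 47.6 at 120 h in 451Lu. It was 2.18-, 2.58- and 3.66-fold higher off drug there (1.12 ± 0.11, 1.37 ± 0.11 and 1.87 ± 0.11 at 24, 72 and 120 h, adjusted p at most 3.38e-07). In A375 SEMA4B measured 29.1 and 27.0 CPM on drug, 22.3 and 22.6 at 6 h, 25.5 and 25.1 at 24 h, and 28.7 and 26.1 at 48 h and fell slightly at 6 h (-0.36 ± 0.085, adjusted p = 3.57e-04). Its 24 h fall (-0.19 ± 0.08, adjusted p = 0.0341) was lost without on-drug replicate 1 (-0.13, adjusted p = 0.293) and without either 24 h library (-0.19 and -0.17, adjusted p = 0.106 and 0.108). It was also lost with RLE size factors (adjusted p = 0.0572), with no filter on low counts (adjusted p = 0.0653), in the joint fit (adjusted p = 0.136) and by DESeq2 (adjusted p = 0.227).

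SEMA4F measured 19.8 and 18.1 CPM on drug, 23.8 and 27.1 at 24 h, 38.1 and 41.9 at 72 h, and 47.3 and 45.5 at 120 h in 451Lu and rose at every time (0.45 ± 0.10, 1.09 ± 0.10 and 1.28 ± 0.092 at 24, 72 and 120 h, adjusted p at most 9.39e-04). In A375 it measured 21.2 and 24.6 CPM on drug, 16.7 and 14.5 at 6 h, 34.9 and 36.6 at 24 h, and 36.8 and 35.4 at 48 h. It was lower there at 6 h (-0.58 ± 0.10, adjusted p = 4.40e-06) and higher at 24 and 48 h (0.61 ± 0.082 and 0.63 ± 0.085 at 24 and 48 h, adjusted p at most 5.08e-08). SEMA4A fell at 6 h in A375 (-1.28 ± 0.31, adjusted p = 4.34e-04). Its 24 h rise (0.67 ± 0.21, adjusted p = 0.00517) was lost without on-drug replicate 1 (0.50, adjusted p = 0.0946) and by DESeq2 (adjusted p = 0.0762). SEMA4D, the ligand of PLXNB1, fell at 6 h in A375 (-0.70 ± 0.27, adjusted p = 0.0216). That call was lost on leaving out any of the 4 libraries (-0.73 to -0.67, adjusted p = 0.0539 to 0.102) and by DESeq2 (adjusted p = 0.140). In 451Lu SEMA4D had 0 counts at 120 h, against 5 on drug.

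SEMA4G fell at 6 h and rose at 24 h in A375 (-0.84 ± 0.14 and 0.52 ± 0.10 at 6 and 24 h, adjusted p at most 4.44e-05). Its rise at 48 h (0.32 ± 0.11, adjusted p = 0.0129) was lost without on-drug replicate 1 (0.26, adjusted p = 0.108) or 48 h replicate 2 (0.24, adjusted p = 0.124) and by DESeq2 (adjusted p = 0.0827). In 451Lu its rise at 72 h (0.88 ± 0.20, adjusted p = 0.00115) was lost without 72 h replicate 2 (0.56, adjusted p = 0.0606). The 120 h rise (0.50 ± 0.21, adjusted p = 0.0406) was lost without on-drug replicate 1 (0.29, adjusted p = 0.284), without either 120 h library (0.51 and 0.39, adjusted p = 0.0813 and 0.172) and by DESeq2 (adjusted p = 0.128), and was 0.75 on dropping on-drug replicate 2. Of its exon bases 22.3% overlap MRPL43 on the opposite strand, which had 5303 counts in all libraries against 1917 for SEMA4G. That pair cannot be separated if strand was not used.

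Among class 5 to 7 genes SEMA6A had the largest fitted fall of any family member in either line. SEMA6A, a transmembrane ligand of PLXNA2 and PLXNA4 in mice, measured 133 and 138 CPM on drug, 11.5 and 13.2 at 6 h, 56.2 and 52.5 at 24 h, and 37.5 and 37.4 at 48 h in A375. It was 11.3-, 2.55- and 3.71-fold lower off drug there (-3.500 ± 0.076, -1.35 ± 0.056 and -1.89 ± 0.061 at 6, 24 and 48 h, adjusted p at most 2.54e-21). In 451Lu SEMA6A measured 342 and 376 CPM on drug, 60.8 and 69.4 at 24 h, 63.4 and 78.3 at 72 h, and 36.4 and 46.3 at 120 h. It was 5.42-, 5.04- and 8.81-fold lower off drug (-2.44 ± 0.10, -2.33 ± 0.10 and -3.14 ± 0.11 at 24, 72 and 120 h, adjusted p at most 4.81e-12). Over both lines the highest library off drug stood at 78.3 CPM and the lowest on drug at 133 CPM. SEMA6D, a related transmembrane ligand, measured 2.82 and 3.27 CPM on drug, 0.426 and 0.537 at 6 h, 1.03 and 1.31 at 24 h, and 0.529 and 0.949 at 48 h in A375. It fell at every time (-2.67 ± 0.37, -1.43 ± 0.28 and -2.05 ± 0.33 at 6, 24 and 48 h, adjusted p at most 2.71e-05). In 451Lu SEMA6D was under the filter, with 0 counts at 24 h against 8 on drug. With the 0 set to a floor of 3 counts over both libraries the level was 2.14-fold lower, a value that carries no interval.

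SEMA6B, a transmembrane ligand of PLXNA4 in mice, measured 1.77 and 2.18 CPM on drug, 0.426 and 0.985 at 6 h, 5.37 and 4.18 at 24 h, and 5.29 and 5.00 at 48 h in A375. It fell at 6 h (-1.51 ± 0.38, adjusted p = 6.21e-04, and -2.21 without 6 h replicate 2) and was above on drug at 24 and 48 h (1.27 ± 0.22 and 1.36 ± 0.23 at 24 and 48 h, adjusted p at most 5.52e-06). In 451Lu SEMA6B measured 0 and 0.116 CPM on drug, 0.431 and 0.429 at 24 h, 1.01 and 2.596 at 72 h, and 1.72 and 1.93 at 120 h. Against 2 counts on drug the ratio was 6.86 (95% exact counting interval 1.498 to 63.7) at 24 h, 29.5 (7.59 to 253) at 72 h and 28.99 (7.52 to 248) at 120 h. The 24 h call was lost without on-drug replicate 1 (1.82, adjusted p = 0.181) and without either 24 h library (2.62 and 2.63, adjusted p = 0.107 and 0.0860). It was also lost by DESeq2 (adjusted p = 0.0587), and was 5.38 without on-drug replicate 2. The calls at 72 and 120 h held without each library. Dropping on-drug replicate 1 gave 3.86 and 3.83, dropping on-drug replicate 2 gave 7.42 and 7.38, and dropping 72 h replicate 2 gave 3.79 at 72 h.

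SEMA6C fell in A375 at 6 h (-1.65 ± 0.20, adjusted p = 6.97e-09) and was not called there later. Its 451Lu rise at 72 h (0.87 ± 0.25, adjusted p = 0.00560) was lost without 72 h replicate 2 (0.73, adjusted p = 0.0658). The 120 h rise (0.67 ± 0.25, adjusted p = 0.0224) was lost without on-drug replicate 1 (0.58, adjusted p = 0.104) or 120 h replicate 1 (0.48, adjusted p = 0.202) and by DESeq2 (adjusted p = 0.118). At 24 h it passed without 24 h replicate 1 (0.78, adjusted p = 0.0427).

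SEMA5A, a transmembrane ligand with thrombospondin repeats, measured 78.3 and 93.2 CPM on drug, 25.8 and 29.6 at 24 h, 80.4 and 78.2 at 72 h, and 112 and 118 at 120 h in 451Lu. It dipped at 24 h (-1.61 ± 0.092, adjusted p = 3.28e-10), was not called at 72 h (-0.11 ± 0.084, adjusted p = 0.247) and rose slightly at 120 h (0.41 ± 0.081, adjusted p = 2.48e-04). The 72 h value passed as a fall without on-drug replicate 1 (-0.24, adjusted p = 0.0303). In A375 SEMA5A measured 36.5 and 38.8 CPM on drug, 20.3 and 17.0 at 6 h, 24.5 and 25.1 at 24 h, and 14.97 and 15.5 at 48 h. It stayed lower at every time (-1.05 ± 0.087, -0.64 ± 0.079 and -1.33 ± 0.091 at 6, 24 and 48 h, adjusted p at most 7.60e-09). SEMA7A, a lipid-anchored ligand of PLXNC1 and of integrins, measured 77.9 and 85.9 CPM on drug, 31.5 and 27.6 at 24 h, 54.3 and 46.7 at 72 h, and 70.2 and 60.0 at 120 h in 451Lu. It was lower at every time off drug, most at 24 h (-1.44 ± 0.10, -0.70 ± 0.094 and -0.35 ± 0.09 at 24, 72 and 120 h, adjusted p at most 0.00253). In A375 SEMA7A measured 32.1 and 34.5 CPM on drug, 37.4 and 37.0 at 6 h, 63.1 and 68.1 at 24 h, and 78.6 and 82.5 at 48 h and rose at 24 and 48 h (0.94 ± 0.065 and 1.24 ± 0.065 at 24 and 48 h, adjusted p at most 7.09e-15).

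The summed level of the 13 membrane-bound semaphorins had an early low that was mostly SEMA6A. In A375 at 6 h 1 of the 12 tested was higher and 10 were lower, against 35.1% and 38.1% of all genes tested. But in 451Lu at 24 h 4 of 9 were higher and 3 lower, against 29.2% and 24.9%. The 13 took 617 to 671 CPM in 451Lu on drug, 323 to 330.5 at 24 h, 519 to 536 at 72 h and 651 to 655 at 120 h. In A375 they took 314 to 328 CPM on drug, 173 to 182 at 6 h, 313 to 318 at 24 h and 291 to 297 at 48 h. Without SEMA6A the sum was 275 to 295 CPM in 451Lu on drug, 261 to 263 at 24 h, 455 to 458 at 72 h and 609 to 614 at 120 h. In A375 without SEMA6A it was 181 to 190 CPM on drug, 160.03 to 171 at 6 h, 261 to 262 at 24 h and 253 to 259.5 at 48 h.

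**Figure D4:**
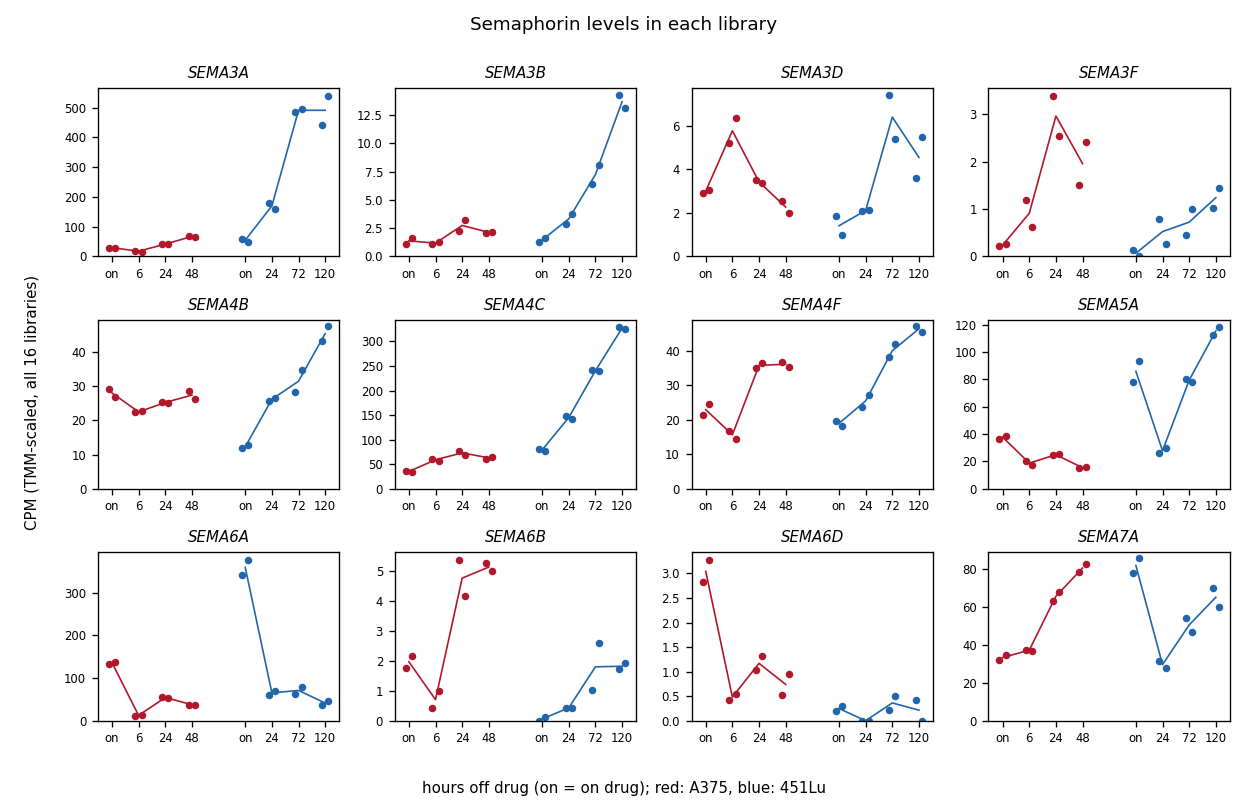
CPM of 12 semaphorins in each library (points) with group means (lines), on drug and at hours off drug along the x axis, with A375 in red on the left and 451Lu in blue on the right of each panel. SEMA3A and SEMA4C climb in 451Lu, SEMA6A drops in both lines, and SEMA5A and SEMA7A dip at 24 h in 451Lu.

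Comparing consecutive times shows when the genes moved, without the on-drug libraries. In A375 most of the turn came between 6 and 24 h, when 20 of 30 genes rose and 6 fell, against 35.5% and 34.2% of all genes tested. The membrane-bound semaphorins made up 10 of the 20, among them SEMA6B (2.78 ± 0.32, and 3.48 without 6 h replicate 2), SEMA6A (2.15 ± 0.087), SEMA4A (1.95 ± 0.29) and SEMA6C (1.71 ± 0.20), all genes that had fallen at 6 h. PLXNA2 (-2.18 ± 0.16), NRP1 (-0.94 ± 0.085) and PLXNA1 (-0.94 ± 0.053) fell over this step. Between 24 and 48 h 4 genes rose and 9 fell, against 14.2% and 15.7%. NRP1 (1.03 ± 0.084) and SEMA3A (0.70 ± 0.066) rose and PLXNB3 (-1.20 ± 0.091), SEMA3E (-0.996 ± 0.10) and SEMA5A (-0.70 ± 0.10) fell. By DESeq2 only 5 of the 30 fell in that step. In 451Lu 19 of 27 genes rose and 1 fell between 24 and 72 h, against 25.9% and 25.5% of all genes tested. The 1 that fell was PLXNA2 (-1.08 ± 0.14), and SEMA5A (1.496 ± 0.10), SEMA3A (1.505 ± 0.092), PLXNB1 (1.12 ± 0.14) and PLXNA3 (1.09 ± 0.072) were among those that rose. NRP1 rose by 3.77, or by 4.51 without 24 h replicate 1, and SEMA6B by 2.05, a call lost without 72 h replicate 2 (1.19, adjusted p = 0.193). Between 72 and 120 h 13 rose and 1 fell, against 16.6% and 16.1%. SEMA6A fell (-0.80 ± 0.12), and NRP1 (1.45 ± 0.23), SEMA3B (0.89 ± 0.17) and PLXNA3 (0.81 ± 0.067) rose most. Without 120 h replicate 1 NRP1 rose by 0.95. The count lower in this last step was 3 without 120 h replicate 2, with SEMA3D (-0.85, adjusted p = 0.0369) and SEMA3E (-0.96, adjusted p = 0.0423) added.

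At 24 h, the time both lines share, 17 of 30 genes changed differently in A375 than in 451Lu: the A375 change was higher for 11 and lower for 6, against 27.4% and 22% of all genes tested. PLXNA4 had the widest difference (5.27 ± 0.59), which rests on 2 on-drug counts in A375. Next was PLXND1, up in A375 and down in 451Lu (2.97 ± 0.12, adjusted p = 1.34e-16). SEMA7A (2.44 ± 0.12, adjusted p = 6.07e-15), PLXNA2 (1.51 ± 0.28, adjusted p = 6.52e-05) and NRP2 (1.28 ± 0.077, adjusted p = 3.17e-13) also rose in A375 and fell in 451Lu. PLXNB1 (-1.71 ± 0.19, adjusted p = 4.08e-08) and SEMA4B (-1.24 ± 0.14, adjusted p = 2.77e-08) did the opposite, although the 24 h fall of SEMA4B in A375 was small and was lost under several settings. PLXNB2 (-1.28 ± 0.086, adjusted p = 3.17e-12) and SEMA3A (-1.14 ± 0.13, adjusted p = 5.27e-08) rose in both lines and by more in 451Lu, and SEMA6A (1.15 ± 0.12, adjusted p = 1.05e-08) fell in both and by more in 451Lu. Of 27 genes tested in each line, 10 (37%) were higher in both, against 18.6% of the 12814 genes tested in both lines. The 10 include NRP1, PLXNA4, SEMA3F and SEMA6B, which in at least 1 line passed the filter only through times off drug. Lower in both were 3 (11.1%), against 13.9%. A further 4 (14.8%) were higher in A375 and lower in 451Lu, against 5.33%, and 2 (7.41%) were the reverse, against 5.6%. SEMA4C did not pass the test of the difference (0.19 ± 0.087, adjusted p = 0.0765), except without A375 24 h replicate 2 (0.26, adjusted p = 0.0290). For SEMA3G (1.35 ± 0.52, adjusted p = 0.0334) the difference was lost without any of 5 single libraries, as with 0.83 (adjusted p = 0.264) without 451Lu 24 h replicate 2, and by DESeq2 (adjusted p = 0.0894). It was 2.33 without 451Lu 24 h replicate 1. For SEMA4G (0.65 ± 0.23, adjusted p = 0.0205) it was lost without any of 3, as with 0.40 (adjusted p = 0.249) without 451Lu on-drug replicate 2, and by DESeq2 (adjusted p = 0.0850).

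**Figure D5:**
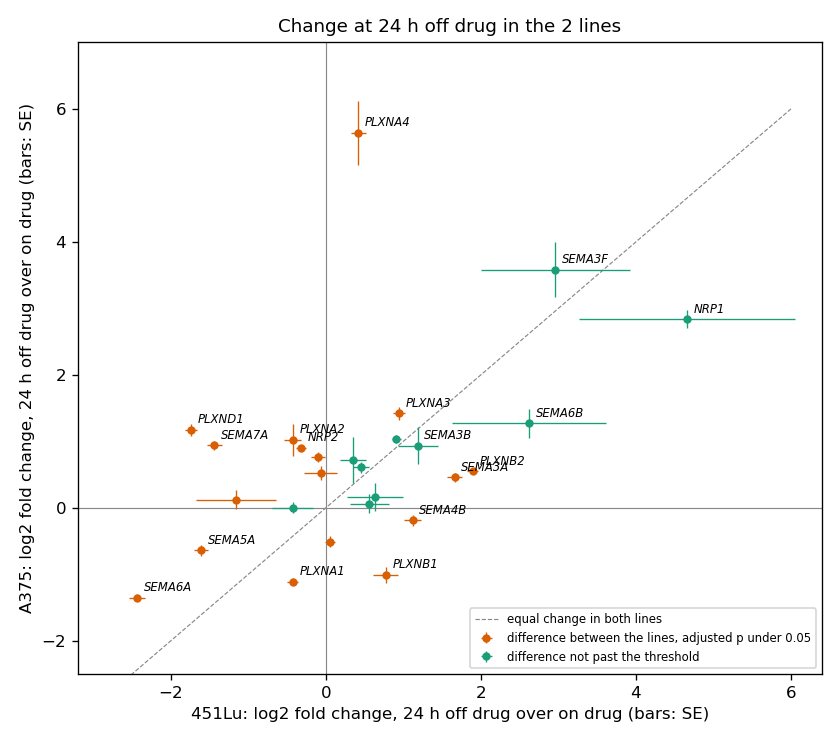
Log2 fold change at 24 h off drug over on drug in A375 (y axis) and 451Lu (x axis), 1 point per gene with bars of 1 SE, coloured by whether the difference between the lines passed adjusted p under 0.05. PLXND1, SEMA7A, PLXNA2 and NRP2 lie in the upper left, PLXNB1 and SEMA4B in the lower right, and SEMA6A, SEMA5A and PLXNA1 in the lower left; the dashed line marks equal change.

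Genes that work beside the family were read from lists, against the 36.6% of all genes tested that were higher and the 36% that were lower in A375 at 48 h, and 37.3% and 36.6% in 451Lu at 120 h. Of 36 intracellular transducers of plexin signals, 31 were tested in each line. Of these 17 were higher and 10 lower in A375 at 48 h, and 16 higher and 8 lower in 451Lu at 120 h, with medians of 0.22 and 0.23. RND3, a small GTPase of the kind plexins bind, was higher by 7.05-fold in A375 at 48 h (2.82 ± 0.060, adjusted p = 5.20e-30) and 8.46-fold in 451Lu at 120 h (3.08 ± 0.078, adjusted p = 4.10e-15). LIMK1, a kinase that phosphorylates cofilin, was higher by 3.85-fold in A375 at 48 h (1.94 ± 0.056, adjusted p = 4.61e-26), and MICAL2, an actin-oxidising enzyme, by 30.02-fold in 451Lu at 120 h (4.91 ± 0.13, adjusted p = 9.42e-15). Of 26 listed symbols of co-receptors, other partners and VEGF ligands, 9 of 19 tested were higher and 3 lower in A375 at 48 h. In 451Lu at 120 h 11 of 17 were higher and 5 lower. The medians were 0.27 in A375 and 0.85 in 451Lu. CSPG4, a proteoglycan of melanoma cells, rose 4.93-fold (2.30 ± 0.047, adjusted p = 2.19e-30) and HGF, the ligand of MET, 8.41-fold (3.07 ± 0.073, adjusted p = 1.85e-28) in A375 at 48 h. VEGFA, a growth factor that binds NRP1, rose 28.5-fold (4.83 ± 0.075, adjusted p = 2.09e-17) and CD44, the hyaluronan receptor, 10.8-fold (3.43 ± 0.066, adjusted p = 1.90e-16) in 451Lu at 120 h.

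Markers of epithelial, blood, endothelial and fibroblast cells were read beside these results, 10 of 14 being in the table. EPCAM, an epithelial adhesion gene, and PTPRC, a marker of blood cells, were at 0 in all 451Lu libraries off drug, and EPCAM was at 0 in all A375 libraries off drug. The summed level of the 10 was 25.8 to 25.97 CPM in A375 on drug, 15.04 to 17.8 at 6 h, 8.27 to 10.56 at 24 h and 5.44 to 6.43 at 48 h. In 451Lu it was 152 to 164 CPM on drug, 34.6 to 36.8 at 24 h, 68.7 to 77.6 at 72 h and 167 to 176 at 120 h. The markers did not move one way. LUM, a proteoglycan of fibroblasts, stood at 5.49 and 6.66 CPM in 451Lu at 120 h, against 153 and 138 CPM on drug, and CDH1, an epithelial cadherin, at 0 and 0 CPM, against 9.81 and 11.8 CPM on drug. PECAM1, an endothelial and blood cell adhesion gene, stood at 118 and 117 CPM in 451Lu at 120 h, against 0 and 0 CPM on drug. PDGFRB, a fibroblast and pericyte receptor, stood at 40.9 and 36.9 CPM, against 0.341 and 0.290 CPM on drug. COL1A1, a collagen of fibroblasts, stood at 9.95 and 5.79 CPM, against 0.136 and 0.464 CPM on drug. COL3A1 was at most 0.225 CPM, CD68 at most 0.999 CPM and VWF at most 1.10 CPM in any 451Lu library. EPCAM and PTPRC were at 0 on drug in 451Lu as well. Whether cells other than melanoma cells had a part in the family's changes was not tested.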

How the data were processed

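Total RNA of 16 libraries was sequenced by the authors, 2 per group. Per the submitters' processing notes, reads were aligned with TopHat2 2.1.0 and Bowtie 1.0.0 to GRCh38. The deposited table holds the authors' raw read counts per Ensembl gene. For the counter, its annotation and its strand setting nothing is given in the sources used here. Overlapping genes on opposite strands may therefore share counts.

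Each line was fitted alone in edgeR 4.0.16 (R 4.3.3) as 1 factor of 4 groups, with TMM scaling, filterByExpr (minimum count 10, minimum total 15) and the quasi-likelihood F test, which left 4 residual degrees of freedom. After the filter 14449 genes remained for A375 and 13851 for 451Lu. Contrasts between lines came from a joint fit of 16 libraries with 15481 genes and 8 residual degrees of freedom. P-values were adjusted by Benjamini and Hochberg's method across all genes tested, with a threshold of 0.05. An SE was obtained as |log2 fold change| over the square root of F. The biological coefficient of variation common to all genes was 3.19% (A375), 4.98% (451Lu) and 4.15% (joint fit). A chi-square test between the 2 libraries of each group gave 1.29 to 6.03 per degree of freedom, so none was counted as a copy of another. The test cannot tell libraries of separate cultures from repeat libraries of the same RNA. Scripts were tested on simulated data.

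TMM scaling assumes that rises and falls balance, so levels are relative to other genes. Where a group had 1 to 3 counts, ratios carry 95% exact Clopper-Pearson intervals, and where it had 0 the floor was 3 counts over its 2 libraries. Levels per kilobase use the union of exons in GENCODE v29, which need not be the authors' annotation. Promoter windows are RefSeq sequences of GRCh38.p14. They were found for 27 of 31 genes.

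The 31 genes and the lists beside them were chosen with earlier results of these data known. Values in every library are given for the 19 genes that were called and changed at least 2-fold at 2 or more times off drug in at least 1 line (12 by A375, 16 by 451Lu, 9 by both), and for NRP2 and SEMA7A, added after their values were seen. In the neighbouring lists the 2 genes with the smallest adjusted p at the last time were named. Of those lists 35 of 36 transducer symbols and 23 of 26 partner symbols matched the table. The partner symbols include both VEGFD and its older symbol FIGF, and OTK, which has no human symbol. Alternatives were other size factors (RLE), no filter, DESeq2 1.42.0, the replicate number as a block, leaving out each library, a test against a 1.5-fold change, and the joint fit. A marker of other cell types and the sum that held it are not reported here.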

Additional observations from a re-analysis of the deposited data

Results flagged for a closer look

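The 24 h change was tested for a difference between the lines, A375 minus 451Lu, on the log2 scale, and 17 family genes passed (edgeR joint fit, adjusted p under 0.05). The A375 change was higher for PLXNA4 (5.27), PLXND1 (2.97), SEMA7A (2.44), PLXNA2 (1.51), SEMA3G (1.35), NRP2 (1.28), SEMA6A (1.15), SEMA5A (1.04), PLXNB3 (0.93), SEMA4G (0.65) and PLXNA3 (0.54). It was lower for PLXNB1 (-1.71), PLXNB2 (-1.28), SEMA4B (-1.24), SEMA3A (-1.14), PLXNA1 (-0.62) and SEMA3C (-0.49). PLXNA4 had 2 counts in A375 on drug, and SEMA3G and SEMA4G did not pass without some single libraries.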

How the results depend on the processing

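Direction and call were recomputed for 345 single gene results under 7 kinds of alternative, 3501 values in all, of which 3244 kept both, 192 no longer passed the threshold, 26 newly passed and 39 changed sign. The sign changes fell on 26 results, none past the threshold in the fit as reported and none past it after the change. On leaving out 1 library the log2 fold change ranged in A375 at 6 h from -0.031 to 0.025 for PLXNB2 and from -0.53 to 0.058 for SEMA3B, at 24 h from -0.057 to 0.084 for SEMA3E, -0.084 to 0.21 for SEMA6C and -0.28 to 0.042 for SEMA4D, and at 48 h from -0.11 to 0.24 for SEMA4A and -0.080 to 0.33 for SEMA4D. In 451Lu it ranged at 24 h from -0.27 to 0.19 for SEMA4G, -0.22 to 0.023 for PLXNB3 and -0.024 to 0.12 for SEMA3C, at 72 h from -0.24 to 0.019 for SEMA5A, and at 120 h from -0.038 to 0.095 for NRP2. For A375 at 48 h against 24 h it ranged from -0.027 to 0.045 for SEMA4F, -0.11 to 0.0034 for PLXNB2, -0.064 to 0.29 for SEMA6B and -0.031 to 0.33 for SEMA3G. For 451Lu at 72 h against 24 h it ranged from -0.30 to 1.46 for SEMA3F, -0.075 to 0.14 for PLXND1 and -0.058 to 0.23 for SEMA6A, and at 120 h against 72 h from -0.53 to 0.80 for SEMA6B, -0.039 to 0.17 for PLXND1 and -0.18 to 0.11 for SEMA3A. For the line difference in the 24 h change it ranged from -0.48 to 0.12 for SEMA3B, -2.22 to 1.72 for SEMA3F and -0.89 to 0.0049 for SEMA3D, and between the lines on drug from -0.41 to 0.21 for SEMA3B. PLXNB2 in A375 at 6 h was 0.031 with RLE size factors, 0.031 by DESeq2 and 0.030 in the joint fit. With no filter SEMA3E in A375 at 24 h was -0.0019 and SEMA4F in A375 at 48 h against 24 h was -0.0050.

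Counts of family genes moved by more than 1.5 times mostly when tested against a 1.5-fold change. In A375 8 were then lower at 6 h (15 as reported), 11 higher and 4 lower at 24 h (17 and 7), 13 higher and 3 lower at 24 h against 6 h (20 and 6) and 1 higher and 2 lower at 48 h against 24 h (4 and 9). In 451Lu 7 were higher and 4 lower at 24 h (12 and 7), 3 lower at 72 h (5), 10 higher at 72 h against 24 h (19), and 2 higher and 0 lower at 120 h against 72 h (13 and 1). By DESeq2 5 were lower in A375 at 48 h against 24 h. The 1 gene lower in 451Lu at 120 h against 72 h became 2 with no filter, with the replicate block and in the joint fit, and 1 to 3 on leaving out 1 library. The cause of these shifts was not tested, except that the 1.5-fold test asks for larger changes.

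Deviations of same-numbered libraries correlated with r of -0.227 to 0.0637 in A375. In 451Lu r was 0.230, 0.370 and 0.285 between the 3 groups off drug and -0.0650 to -0.0139 between these and on drug. Same-numbered libraries off drug in 451Lu thus deviated partly together, and the cause of this was not tested. The sample titles carry the letters B and C at every time in both lines, on drug included. What the letters stand for is not stated. The fit as reported did not use them, and the replicate block did. With the replicate block SEMA6B at 120 h against 72 h was 0.0059, PLXNA1 in 451Lu at 72 h newly passed (0.15, adjusted p = 0.0361), SEMA4B at 72 h against 24 h newly passed (0.24, adjusted p = 0.0366) and SEMA3E at 120 h against 72 h newly passed as lower (-0.72, adjusted p = 0.0420), and counts stayed within 1 gene. With the numbers crossed at 48 h, chosen after seeing the data, A375 at 48 h against 24 h still had 4 higher and 9 lower.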
